A study of Pyrus hybrid rootstock with 24 samples.

Results

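Sucrose is a sugar that plants move through the phloem, in pear and its relatives beside the sugar alcohol sorbitol, and it has to be cleaved before a sink tissue can use it. Invertase (Inv) hydrolyses sucrose irreversibly to glucose and fructose, whereas sucrose synthase (Sus) cleaves it reversibly to fructose and a nucleotide sugar that can go into cell walls or starch. Trehalose 6-phosphate is made in traces in most plants and is known as a signal of sucrose supply. Trehalose 6-phosphate phosphatase (written ostB in the study) removes its phosphate and leaves trehalose.

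The transcripts of 6 pear genes of these enzymes were followed in healing graft unions. They were 2 invertase genes (Pbr015752.1 and Pbr012738.1), 1 sucrose synthase gene (Pbr028302.1) and 3 trehalose phosphatase genes (Pbr012737.1, Pbr010793.1 and Pbr016047.1). The genes were chosen by their difference in FPKM between graft types. The study had named 8 genes of these enzymes as differing, and the 6 that reached an FPKM of at least 1 in 3 or more of the 24 libraries were kept, out of 42812 genes in all. FPKM is the number of sequenced fragments of a gene, scaled to its length and to the depth of the library. The identifiers were read from a picture, so a misread digit cannot be checked here, and the enzyme names are those of the study. Pbr010793.1 was just inside the limit, with 3 libraries at or above an FPKM of 1 and a highest value of 1.12. These were SCD replicate 2, DCF replicate 1 and DCD replicate 2, from the conditions where it was highest, so the limit itself favours a change with stage for this gene, and its stage differences are given without a test. The other 2 genes, both named as trehalose phosphatases, were outside it. Pbr017514.1 had 2 such libraries and a highest FPKM of 1.50, and Pbr039508.1 had 0 and a highest FPKM of 0.826.

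By the sample titles, homografts joined "Qingzhen D1", a hybrid of Pyrus communis and Pyrus bretschneideri, to itself, and heterografts joined QAUP-1 (Pyrus ussuriensis) as the scion to a "Qingzhen D1" rootstock. The series text gives the heterograft cultivars in the other order, which leaves the groups the same. All were micrografts of plantlets held in silicon tubing and grown on a half-strength medium with sucrose, agar, the cytokinin 6-BA and the auxin IBA, so every graft had an outside supply of sugar. Unions were taken at 1, 5, 9 and 30 days after grafting (DAG), stages named SS, CF, CD and VC. Conditions carry the prefix S for homografts and D for heterografts, and each of the 8 had 3 libraries. Scion and rootstock RNA were not separated, and the heterograft is 1 combination of cultivars, so an effect of the QAUP-1 scion itself cannot be told apart from an effect of joining unlike partners. Fewer cells of a type and less RNA per cell cannot be told apart either.

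A library held 10373751 to 13629999 reads on genes (median 11827452), and the members took between 1 and 255 reads each in a library. The median number of reads per library was 89.5 for Pbr015752.1, 75 for Pbr012738.1, 58 for Pbr028302.1, 47 for Pbr012737.1, 79.5 for Pbr016047.1 and 7.5 for Pbr010793.1, whose values are the least precise. Implied coding lengths were 1938 bp for both invertase genes, 2604 bp for the sucrose synthase gene, and 1161, 1122 and 1128 bp for Pbr012737.1, Pbr010793.1 and Pbr016047.1. Both invertase genes have the same length, and whether reads were shared or lost between near copies was not tested. DCD replicate 1 stood apart. It had the lowest mean correlation with its own replicates of all 24 libraries (r = 0.970 over tested genes), and the library nearest to it was SCD replicate 1 (r = 0.980). Where leaving it out changed a call, the order of the means, or a difference between graft types at CD, both values are given.

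**Figure D1:**
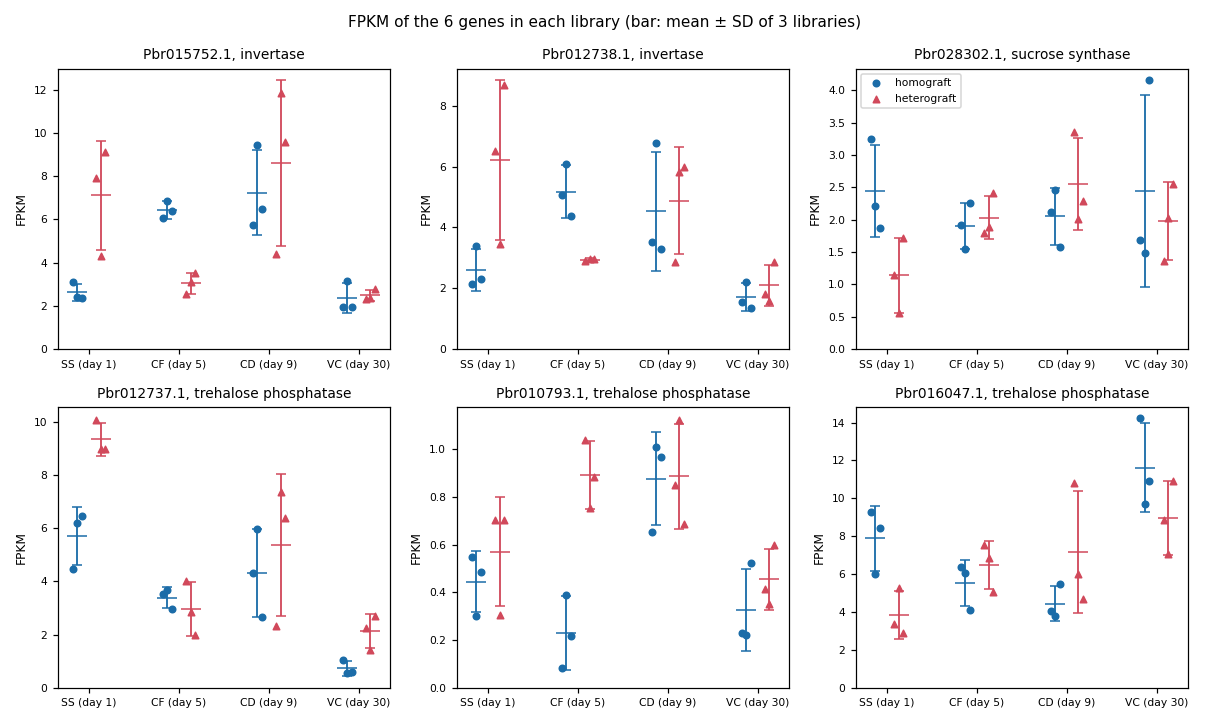
FPKM of each member (vertical axes, linear) at the 4 stages (horizontal axes), with 1 point per library, homografts as circles and heterografts as triangles, and the mean ± SD of 3 libraries as bars. Both invertase genes lie low in every VC library, and Pbr016047.1 is highest in SVC with a mean FPKM of 11.6.

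The SSS libraries measured the invertase gene Pbr015752.1 at FPKM values of 3.09, 2.40 and 2.38, the SCF libraries at 6.05, 6.85 and 6.40, the SCD libraries at 5.75, 9.45 and 6.47 and the SVC libraries at 1.96, 3.15 and 1.95. The DSS libraries had values of 7.93, 4.30 and 9.13, the DCF libraries of 2.54, 3.10 and 3.51, the DCD libraries of 4.38, 11.8 and 9.60 and the DVC libraries of 2.30, 2.37 and 2.78. The homografts were thus low at SS, high at CF and CD and low again at VC, whereas the heterografts were high at SS, low at CF, high at CD in 2 of 3 libraries and low at VC. The highest condition mean was 8.61 ± 3.83 (SD, n = 3) in DCD and the lowest was 2.35 ± 0.690 in SVC, a ratio of 3.66. Without DCD replicate 1 the DCD mean was 10.7 and the ratio 4.56. In the order of the 8 means, the only neighbours whose libraries did not overlap were SCF, at 6.43 ± 0.403, and DCF, at 3.05 ± 0.487.

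The invertase gene Pbr012738.1 had a similar pattern, mostly at a lower level, with nearly the same mean in SSS (2.61 against 2.62 for Pbr015752.1). Its mean was lower in SCD than in SCF (4.52 against 5.18), where that of Pbr015752.1 was higher (7.23 against 6.43). The libraries of these 2 conditions overlapped for both genes. The SSS libraries measured it at FPKM values of 2.13, 3.40 and 2.29, the SCF libraries at 5.07, 6.09 and 4.38, the SCD libraries at 3.52, 6.77 and 3.28 and the SVC libraries at 1.56, 2.21 and 1.34. The DSS libraries had values of 6.52, 3.46 and 8.68, the DCF libraries of 2.88, 2.97 and 2.95, the DCD libraries of 2.87, 5.81 and 5.97 and the DVC libraries of 1.82, 1.59 and 2.86. Its highest mean, 6.22 ± 2.62 in DSS, was 3.65 times its lowest, 1.70 ± 0.453 in SVC. DSS replicate 2 was the lowest DSS library for both invertase genes, and DCD replicate 1 was the lowest DCD library for both. In its order of means only SCD and DCF did not overlap as neighbours. Without DCD replicate 1 the DCD mean was 5.89 in place of 4.88, and so above the SCF mean of 5.18.

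Summed over both invertase genes, homografts went from a mean FPKM of 5.23 ± 0.563 (SS) to 11.6 ± 1.16 (CF), 11.8 ± 3.88 (CD) and 4.06 ± 1.14 (VC). Heterografts went from 13.3 ± 5.11 (SS) to 5.98 ± 0.526 (CF), 13.5 ± 5.51 (CD) and 4.57 ± 0.926 (VC). The sum changed several fold between conditions, while its make-up changed little. Pbr015752.1 made up a mean of 50.5% to 63.1% of it in the 8 conditions.

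The sucrose synthase gene Pbr028302.1 had a flatter pattern. The SSS libraries measured the sucrose synthase gene Pbr028302.1 at FPKM values of 3.24, 2.21 and 1.88, the SCF libraries at 1.92, 1.54 and 2.26, the SCD libraries at 2.11, 2.46 and 1.57 and the SVC libraries at 1.69, 1.49 and 4.16. The DSS libraries had values of 1.15, 0.561 and 1.72, the DCF libraries of 1.79, 1.89 and 2.42, the DCD libraries of 3.35, 2.01 and 2.30 and the DVC libraries of 1.35, 2.03 and 2.56. Only the 3 DSS libraries stood below their counterparts of the same stage, and SVC replicate 3 was its highest library of all, at more than 2 times either of its replicates. The highest and lowest means, 2.55 ± 0.709 in DCD and 1.14 ± 0.577 in DSS, differed 2.24-fold, and all neighbours in the order of means overlapped. Without DCD replicate 1 the DCD mean was 2.15, and SVC had the highest mean, at 2.14 times that of DSS.

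Among the trehalose phosphatase genes, Pbr012737.1 had the largest ratio of highest to lowest condition mean of all members. The SSS libraries measured Pbr012737.1 at FPKM values of 4.47, 6.18 and 6.47, the SCF libraries at 3.52, 3.69 and 2.95, the SCD libraries at 4.30, 5.98 and 2.66 and the SVC libraries at 1.04, 0.568 and 0.578. The DSS libraries had values of 10.1, 8.96 and 8.98, the DCF libraries of 4.02, 2.84 and 2.0, the DCD libraries of 2.32, 7.37 and 6.39 and the DVC libraries of 2.24, 1.43 and 2.71. Levels were highest on the first day in either graft type and lowest in the VC homografts, where each library rested on 8 to 14 reads. The mean of 9.33 ± 0.629 in DSS was 12.8 times that of 0.729 ± 0.269 in SVC. In its order of means, DSS and SSS did not overlap at the top, nor did DVC and SVC at the bottom. Without DCD replicate 1 the DCD mean was 6.88 in place of 5.36. It then stood between DSS and SSS, whose mean was 5.71.

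Pbr016047.1, also a trehalose phosphatase gene, was the member with the highest level. The SSS libraries measured Pbr016047.1 at FPKM values of 9.28, 5.99 and 8.42, the SCF libraries at 6.37, 6.04 and 4.12, the SCD libraries at 4.03, 3.81 and 5.49 and the SVC libraries at 14.2, 9.72 and 10.9. The DSS libraries had values of 3.35, 5.26 and 2.87, the DCF libraries of 7.53, 6.83 and 5.07, the DCD libraries of 10.8, 5.99 and 4.70 and the DVC libraries of 8.88, 7.08 and 10.9. Homografts thus dipped at CF and CD and were highest at VC, whereas heterografts were lowest at SS. The highest mean, 11.6 ± 2.33 in SVC, was 3.04 times the lowest, 3.83 ± 1.26 in DSS, and no neighbours in the order of means were separate. The DCD mean was 7.17, and 5.34 without DCD replicate 1.

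The third trehalose phosphatase gene, Pbr010793.1, was near the limit of what these libraries can show. The SSS libraries measured Pbr010793.1 at FPKM values of 0.549, 0.301 and 0.484, the SCF libraries at 0.081, 0.389 and 0.218, the SCD libraries at 0.654, 1.01 and 0.969 and the SVC libraries at 0.231, 0.220 and 0.524. The DSS libraries had values of 0.704, 0.306 and 0.703, the DCF libraries of 1.04, 0.755 and 0.886, the DCD libraries of 0.849, 1.12 and 0.687 and the DVC libraries of 0.413, 0.352 and 0.600. These values stand for 1 to 15 reads per library. SCD, DCF and DCD were the higher conditions and SCF was the lowest, at a mean of 0.230 ± 0.155 against 0.893 ± 0.142 in DCF, a ratio of 3.89. All neighbours in its order of means overlapped. Without DCD replicate 1 the DCD mean was 0.906 in place of 0.887. DCD then had the highest mean, at 3.95 times that of SCF.

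The change with stage was then tested on the mean of both graft types, a measure that is independent of the difference between graft types for which the genes had been picked, although both rest on the same spread between replicates. By an F test over the 4 stages in limma, 4 of the 5 members tested changed with stage, beside 63.4% of all 26895 tested genes, so a change with stage was common and is not particular to these genes. The adjusted p was 2.19e-06 for Pbr012737.1, 6.56e-05 for Pbr015752.1, 0.00144 for Pbr012738.1 and 0.00179 for Pbr016047.1. For the sucrose synthase gene Pbr028302.1 it was 0.499, and the range of its stage means was 0.29 on the log2 scale. The stage means of Pbr010793.1 spanned 0.44 on that scale.

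From SS to CF, the trehalose phosphatase gene Pbr012737.1 fell by 1.01 on the log2(FPKM + 1) scale (SE 0.20, limma adjusted p = 0.000803). It was the only member called, beside 12.4% of tested genes that were lower and 19.5% that were higher. Within either graft type its CF libraries all lay below its SS libraries, and the share of all tested genes that did so was not counted. The other 4 members tested differed by -0.01 to 0.15 on that scale, with adjusted p of 0.574 to 0.974, and Pbr010793.1 differed by 0.02. The balance of all genes moved with the scaling, and with upper-quartile scaling 4353 were higher and 3974 lower, in place of 5239 and 3348. Fitted in homografts alone, Pbr012737.1 differed by -0.60 and was not called (adjusted p = 0.0793). For both invertase genes a difference near 0 is the mean of opposite differences in the 2 graft types, as described with the graft types.

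From CF to CD, none of the members passed the test in limma (0 of 5), beside 0.331% of tested genes that were higher and 0.294% that were lower. With upper-quartile scaling the 89 higher and 79 lower genes became 81 and 110. The unadjusted p was below 0.05 for 1 of these 5 tested members, the invertase gene Pbr015752.1, at a log2 difference of 0.64 (unadjusted p = 0.00287, adjusted p = 0.128). Pbr010793.1 differed by 0.30. Voom on the recovered reads also called 0 members. This step rests on DCD replicate 1. Without it, 2 members were called higher, Pbr015752.1 by 0.83 (adjusted p = 0.00872) and Pbr012737.1 by 0.63 (adjusted p = 0.0402), and the genes called in all rose from 168 to 1192.

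From CD to VC, both invertase genes fell and the trehalose phosphatase genes parted. Pbr015752.1 fell by 1.33 (SE 0.19, limma adjusted p = 2.25e-05) and Pbr012738.1 by 0.94 (SE 0.20, adjusted p = 0.000927). Pbr012737.1 fell by 1.26 (SE 0.20, adjusted p = 8.13e-05), whereas Pbr016047.1 rose by 0.77 (SE 0.18, adjusted p = 0.00203). The sucrose synthase gene Pbr028302.1 differed by -0.07 (SE 0.18, adjusted p = 0.776). Thus 3 of the 5 members tested were lower and 1 was higher, beside 17.1% and 21.5% of tested genes, and the median difference was -0.94 over these 5 and 0.04 over all tested genes. With upper-quartile scaling the balance of all genes turned, from 5788 higher and 4590 lower to 4812 and 5297, and the 4 calls stayed. Pbr010793.1 differed by -0.44 (SE 0.11).

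Each of these 4 calls was kept with any 1 of the 24 libraries left out, and in homografts alone. Fitted in heterografts alone, only that of Pbr015752.1 was kept. There Pbr012738.1 differed by -0.90 (limma adjusted p = 0.0609), Pbr012737.1 by -0.94 (0.0658) and Pbr016047.1 by 0.34 (0.434). A change within 1 graft type is not independent of how the genes were chosen. Within a graft type the libraries are only described, as the share of all tested genes without overlap was not counted. The VC libraries of both invertase genes all lay below the CD libraries in homografts and in heterografts. Those of Pbr010793.1 did so too, but the FPKM limit favours this, as it was reached in SCD and DCD libraries. For Pbr012737.1 the VC libraries lay below the CD libraries in homografts. In heterografts its ranges overlapped through DCD replicate 1, at 2.32 against 1.43 to 2.71 in DVC. For Pbr016047.1 the VC libraries all lay above the CD libraries in homografts, whereas in heterografts they overlapped, with DCD replicate 1 at 10.8 and DVC at 7.08 to 10.9.

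**Figure D2:**
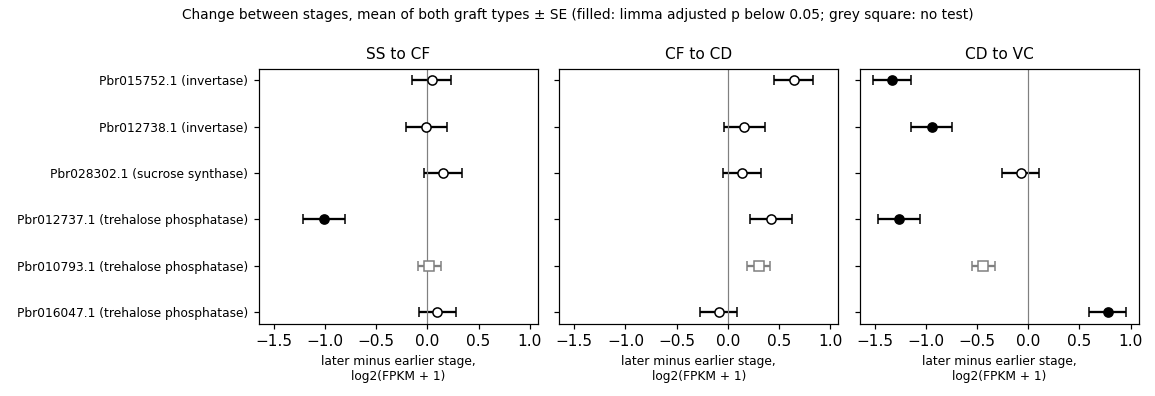
Difference between consecutive stages on the log2(FPKM + 1) scale (horizontal axes, later minus earlier), as the mean of both graft types ± SE, for each member (rows) and each step (panels), with filled points for a limma adjusted p below 0.05. Pbr012737.1 is the only filled point from SS to CF, there is none from CF to CD, and from CD to VC 3 filled points lie below 0 and 1 above. Pbr010793.1 is a grey square, given without a test.

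The levels of the 3 trehalose phosphatase genes differ in make-up between the conditions. Their summed mean FPKM stayed between 9.13 and 14.0. In homografts Pbr012737.1 held 41.0% ± 9.20 (SD, n = 3) of that sum at SS, then 37.4% ± 2.70 (CF), 44.1% ± 13.5 (CD) and 5.64% ± 0.976 (VC). In heterografts it held 68.2% ± 5.61 at SS, then 28.1% ± 3.47 (CF), 40.6% ± 20.8 (CD) and 18.2% ± 1.78 (VC). Pbr016047.1 took most of the rest, from a mean of 27.6% ± 7.46 in DSS to 91.7% ± 0.828 in SVC, and was at 77.9% ± 1.72 in DVC. The 2 genes thus changed places between DSS, where Pbr012737.1 led in each of 3 libraries, and VC, where Pbr016047.1 led in each library of either graft type. In SSS, Pbr016047.1 already had the larger mean share, at 55.9% ± 8.50, although Pbr012737.1 led in replicate 2 (49.6% against 48.0%). Within DCD the lead differed between libraries. Pbr016047.1 held 77.3% in replicate 1, whereas Pbr012737.1 led with 50.9% and 54.3% in replicates 2 and 3. Without replicate 1 the DCD means were 52.6% for Pbr012737.1 and 40.6% for Pbr016047.1. Pbr010793.1 held a mean of 2.55% to 9.08%.

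**Figure D3:**
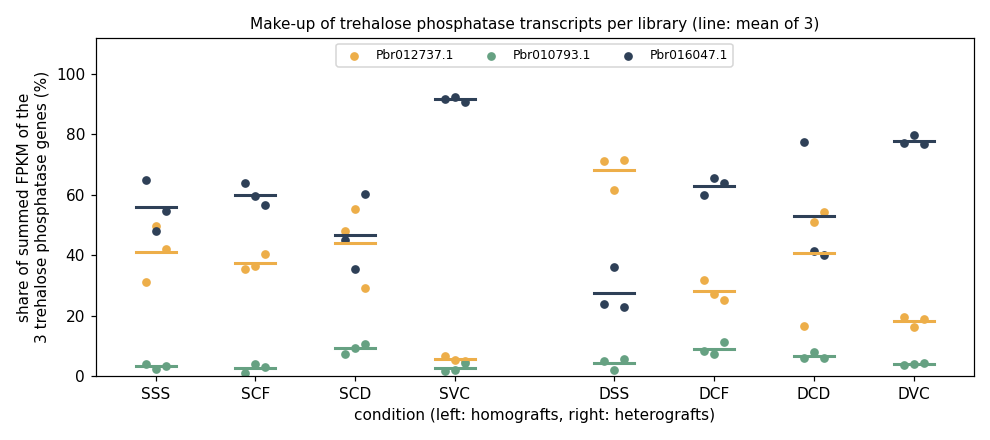
Share of each trehalose phosphatase gene in the summed FPKM of the 3 genes (vertical axis, percent), with 1 point per library and a line at the mean, for the 8 conditions (horizontal axis, homografts on the left). Pbr016047.1 has a mean share of 91.7% in SVC and 27.6% in DSS, and the 3 DCD libraries are widely spread (SD 20.8 for Pbr012737.1).

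The difference between heterografts and homografts is given as a description, because the genes were picked for it, and no test was made. At SS, the 3 heterograft libraries did not overlap the 3 homograft libraries for 5 of the 6 members, beside 30.7% of tested genes. With upper-quartile scaling the count of members was 4. The separation of Pbr012738.1 was narrow, with DSS replicate 2 at an FPKM of 3.46 and SSS replicate 2 at 3.40, and was lost with that scaling. Both invertase genes and Pbr012737.1 were higher in heterografts, by 1.12 (SE 0.27) for Pbr015752.1, 0.95 (SE 0.28) for Pbr012738.1 and 0.63 (SE 0.29) for Pbr012737.1 on the log2(FPKM + 1) scale. The sucrose synthase gene Pbr028302.1 was lower, by 0.70 (a difference of -0.70), and Pbr016047.1 differed by -0.89. Pbr010793.1 overlapped, at 0.11.

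At CF the invertase genes were the other way round. Between SS and CF, 3.89% of tested genes moved in opposite directions in the 2 graft types, without overlap between the stages in either. That share counts a rise in either graft type with a fall in the other. The DCF libraries all lay below the SCF libraries for Pbr015752.1 (-0.88) and Pbr012738.1 (-0.64), beside 22.2% of tested genes without overlap in either direction. For Pbr010793.1 they all lay above (0.63), which makes 3 of 6. This gene reached the FPKM limit in DCF replicate 1, so the limit itself favours that difference, and nothing is read from it. Pbr028302.1, Pbr012737.1 and Pbr016047.1 overlapped, at 0.06, -0.18 and 0.20.

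At CD the graft types overlapped for each of the 6 members (0 without overlap, beside 9.83% of tested genes), with differences of 0.01 to 0.53, the highest for Pbr016047.1. Without DCD replicate 1, heterografts lay above homografts for 2 members, Pbr015752.1, at 0.53 in place of 0.16, and Pbr012737.1, at 0.62 in place of 0.20. The others still overlapped, at 0.37 in place of 0.10 for Pbr012738.1, 0.06 in place of 0.21 for Pbr028302.1, 0.23 in place of 0.53 for Pbr016047.1 and 0.02 in place of 0.01 for Pbr010793.1. At VC the 1 member without overlap was Pbr012737.1, higher in DVC by 0.84, beside 11.9% of tested genes. Its homograft libraries there held 8 to 14 reads each, and its heterograft libraries 21 to 42. The other 5 members differed by -0.34 to 0.18 at VC.

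**Figure D4:**
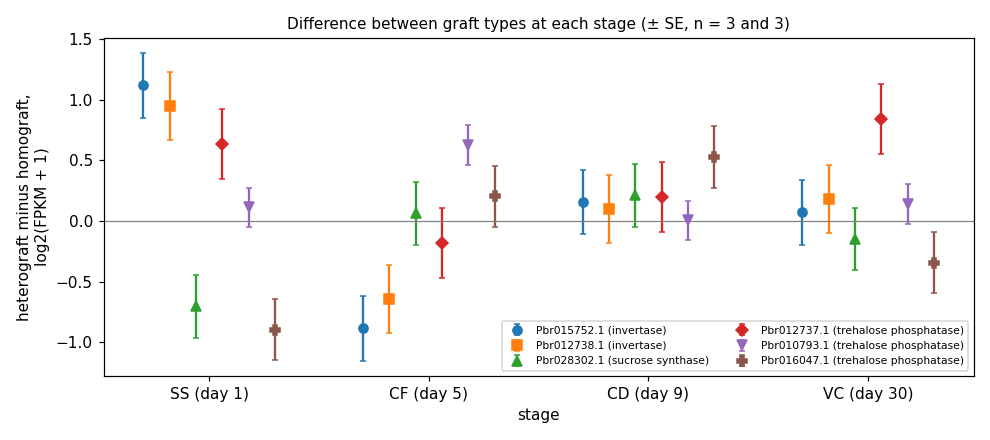
Difference between heterografts and homografts on the log2(FPKM + 1) scale (vertical axis, ± SE from the fit of all libraries) for the 6 members at each stage (horizontal axis). The invertase genes lie above 0 at SS (1.12 and 0.95), below 0 at CF (-0.88 and -0.64) and within 0.2 of 0 at CD and VC.

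Replicates of a condition also differ among themselves, and deviations from the condition mean leave out the differences between conditions. The correlations of deviations are given as a description of 24 libraries, which share within a library its depth and the union it came from. The deviations of both invertase genes went together, at a Pearson r of 0.828 and a Spearman rho of 0.760. Without the 2 libraries farthest from the median r was 0.809, and without DCD replicate 1 it was 0.780. Among the 26894 other tested genes, Pbr015752.1 held place 8 in this likeness to Pbr012738.1, and Pbr012738.1 held place 68 in likeness to Pbr015752.1.

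Of the 15 pairs of members, 10 deviated in the same direction (r above 0) and 5 in opposite directions, and the invertase pair had the highest r. The next was Pbr012738.1 with the trehalose phosphatase gene Pbr012737.1, at r = 0.621 and rho = 0.601, with r = 0.464 without DCD replicate 1. Pbr015752.1 and Pbr016047.1 deviated in opposite directions, at r = -0.635 and rho = -0.552, and r was -0.42 without DCD replicate 1, in which the invertase gene was low and the trehalose phosphatase gene was high.

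**Figure D5:**
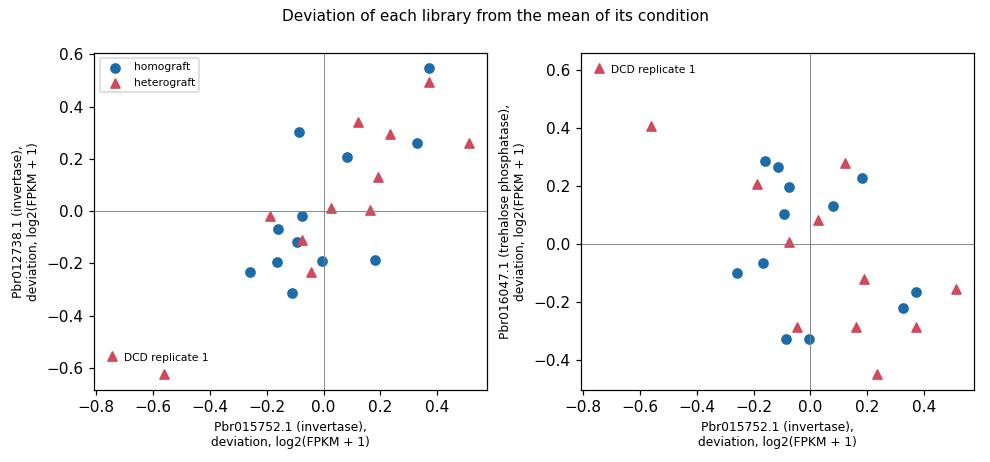
Deviation of each library from the mean of its condition on the log2(FPKM + 1) scale, for the invertase gene Pbr015752.1 (horizontal axes) against the invertase gene Pbr012738.1 (left, r = 0.828) and against the trehalose phosphatase gene Pbr016047.1 (right, r = -0.635), with homografts as circles and heterografts as triangles. DCD replicate 1 is labelled and lies at the far left of both panels.

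Over the 24 libraries with the conditions left in, the levels of the 2 invertase genes correlated at r = 0.906 on the log2(FPKM + 1) scale, and among the 26894 other tested genes Pbr015752.1 was the one most like Pbr012738.1. In the other direction Pbr012738.1 was in place 13. The 2 genes outside the members that were most like Pbr015752.1 were Pbr001867.1 (r = 0.942) and Pbr019914.1 (r = 0.938), and for Pbr012738.1 they were Pbr038811.1 (r = 0.882) and Pbr011701.1 (r = 0.880). At the other end, Pbr012738.1 held place 26891 of 26894 in likeness to the trehalose phosphatase gene Pbr016047.1, at r = -0.801. Among the trehalose phosphatase genes, Pbr012737.1 was most like Pbr015751.1 (r = 0.916) and Pbr022151.1 (r = 0.912), Pbr010793.1 like Pbr014514.1 (r = 0.761) and Pbr028370.1 (r = 0.729), and Pbr016047.1 like Pbr036472.1 (r = 0.854) and Pbr040055.1 (r = 0.841). The sucrose synthase gene Pbr028302.1 was most like Pbr012642.1 (r = 0.801) and Pbr014914.1 (r = 0.800). These correlations describe 24 libraries of 8 conditions, and the files give no names for the other genes. The members were chosen for a difference between graft types, which is left in these values, so the places are a description only.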

How the data were processed

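Graft unions were profiled by paired-end RNA-seq. The authors trimmed the reads (Cutadapt), aligned them to a scaffold genome of Pyrus bretschneideri (HISAT2) and counted them per gene (HTSeq). They deposited FPKM values of 42812 genes for each library, without a log. How reads that align to several genes were treated, and whether strand was used, is not given in the sources used here. The genome is that of a parent species of "Qingzhen D1" and not of QAUP-1, and the effect of this on heterograft values was not tested.

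Libraries were grouped by the deposited titles. A gene's FPKM values in a library are whole multiples of the worth of 1 read, and whole reads were recovered in this way (tolerance 0.02 reads, 32966 of 32966 genes above 0 in 4 or more libraries). This was checked on the genes with more reads, where every implied length was a multiple of 3, as were the lengths of the members. Lengths are therefore taken as coding lengths. The replicates are biological by the methods. The limma p-values set a difference against the spread between replicates, pooled for each gene over the 8 conditions.

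Genes were tested if their FPKM reached 1 in 3 or more libraries (26895 genes). limma 3.58.1 (R 4.3.3) was run on log2(FPKM + 1) with a trend of the variance on the mean, 8 condition means and no covariate, which understates changes of low genes. Change with stage was tested two-sided on the means of both graft types, by an F test and by 3 contrasts of consecutive stages. P-values were adjusted after Benjamini and Hochberg over the tested genes, with calls at an adjusted p below 0.05. Heterografts and homografts were compared without a test. Python 3.11.15 with pandas 2.3.3, numpy 2.4.6 and scipy 1.17.1 gave the other values. No cell type markers could be checked, as the values carry identifiers without gene names.

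Named were the 6 members, the 2 genes of the same enzymes under the limit, and for each member the 2 other tested genes with the highest Pearson r. Pbr015751.1 was followed further after its values were seen. The members, lists and tests were chosen with earlier results of these data known. Alternatives were upper-quartile scaling, no trend, no filter, a limit of FPKM 5, a pseudocount of 0.1, the replicate number as a block, a log2 change above 1 with an unadjusted p below 0.05, voom on recovered reads, 1 graft type alone and each library left out in turn. Correlations of replicate deviations and heterografts without DCD replicate 1 were added after the data were seen.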

Additional observations from a re-analysis of the deposited data

Results flagged for a closer look

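From SS to CF, both invertase genes moved in opposite directions in the 2 graft types, without overlap between stages in either. Pbr015752.1 was higher at CF in homografts, by 1.04 on the log2(FPKM + 1) scale, and differed by -0.96 in heterografts, so the heterograft change minus the homograft change was -2.0. For Pbr012738.1 the changes were 0.78 and -0.81, a difference of -1.59. The same opposite movement without overlap, in either direction, was seen in 3.89% of tested genes. The difference was not tested, because the contrast between graft types at these stages chose the genes.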

How the results depend on the processing

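Calls of the 6 members with stage and between stages were the same under upper-quartile scaling, no trend, no filter, a pseudocount of 0.1, voom and the replicate block, while a limit of FPKM 5 removed Pbr028302.1 and Pbr010793.1 from the tested genes. The counts given here are of all 6 members and include Pbr010793.1, which the report gives without a test. Nothing is read from the calls of this gene, as the limit itself favours its change with stage. Without Pbr010793.1, 4 members changed with stage and 4 from CD to VC in the main fit. With the replicate block 5 of all 6 members changed with stage and 5 from CD to VC, as without the block. Same-numbered libraries deviated together (r over 0.1) in 4 of 12 pairs, 3 of them the 3 pairs at CD (r of 0.133 to 0.178) and 1 at VC, so the numbers were not taken as pairs over the series. The best match was the own number for 6 of 12, among them all 3 at CD. At a log2 change above 1 and an unadjusted p below 0.05, 2 members changed with stage and 2 from CD to VC, in place of 5 and 5. From SS to CF, both invertase genes passed in homografts alone (2), where Pbr012737.1 was lost, and 2 in heterografts without DCD replicate 1, in place of 1, but such a change within 1 graft type is not independent of how the genes were chosen. From CF to CD, 2 passed in heterografts without DCD replicate 1, and 0 to 2 with each library left out in turn. From CD to VC, 1 passed in heterografts alone and 3 without DCD replicate 1. Members without overlap between graft types numbered 0 to 2 at CD and 1 to 3 at VC with each library left out in turn. At SS they numbered 5 to 6 in this way, and 4 with upper-quartile scaling.

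Changes that did not pass the test also turned direction. From SS to CF, Pbr012738.1 was at 0.0082 with a pseudocount of 0.1 and 0.0071 with voom, and Pbr010793.1 at -0.093 and -0.14. In homografts alone that step was 0.78 for Pbr012738.1, -0.23 for Pbr028302.1, -0.24 for Pbr010793.1 and -0.45 for Pbr016047.1, and for Pbr015752.1 it was -0.96 in heterografts alone, with or without DCD replicate 1. From CF to CD, Pbr012738.1 was at -0.21 in homografts alone, and in heterografts alone Pbr010793.1 was at -0.0088 and Pbr016047.1 at 0.073. From CD to VC, Pbr028302.1 was at 0.11 in homografts alone. With each library left out in turn, SS to CF ranged from -0.10 to 0.13 for Pbr015752.1, -0.17 to 0.11 for Pbr012738.1 and -0.043 to 0.065 for Pbr010793.1, CF to CD from -0.24 to 0.022 for Pbr016047.1, and CD to VC from -0.24 to 0.022 for Pbr028302.1. With a pseudocount of 0.1 the difference between graft types was -1.12 for Pbr028302.1 at SS, 1.70 for Pbr010793.1 at CF and 1.43 for Pbr012737.1 at VC, and without SVC replicate 3 it was 0.18 for Pbr028302.1 at VC, in place of -0.15.

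Over all tested genes, 17060 changed with stage, against 3504 at the log2 change above 1 and 10852 in heterografts alone. From SS to CF the counts were 8587, 832 and 4634, and 4943 in heterografts without DCD replicate 1. From CF to CD they were 168, against 0 in homografts alone, 34 to 1192 with each library left out in turn, and 2197 in heterografts without DCD replicate 1. From CD to VC they were 10378, against 1013 at the log2 change above 1, 6103 in homografts alone, 4104 in heterografts alone and 4386 without DCD replicate 1. Depth limits Pbr010793.1 most, with 1 to 15 reads per library.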

Other observations

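The trehalose phosphatase gene Pbr012737.1 and the invertase gene Pbr012738.1 have consecutive identifiers, and so do Pbr015751.1, the gene most like Pbr012737.1, and the other invertase gene, Pbr015752.1. The first gene of either pair has an implied coding length of 1161 bp and the second one of 1938 bp. This was noticed after the values were seen. Pbr012737.1 and Pbr012738.1 correlated at r = 0.728 over the 24 libraries, where 3.76% of 16136 consecutive tested pairs were higher and the median was 0.0994. Both genes were chosen for a difference between graft types, and that difference is left in this r. The other pairs were not chosen so, and nothing is read from the share. Pbr015751.1 and Pbr015752.1 correlated at r = 0.569. The invertase genes correlated at r = 0.906 with each other. Pbr015751.1 was found by its r of 0.916 with Pbr012737.1, the highest of all tested genes, so that value is not compared with the others. Pbr015751.1, to which no enzyme name is given in the files, went in homografts from a mean FPKM of 4.85 ± 1.15 (SD, n = 3) at SS to 2.38 ± 0.742 (CF), 3.21 ± 0.963 (CD) and 0.921 ± 0.503 (VC). Heterografts went from 6.74 ± 0.957 at SS to 2.21 ± 0.827 (CF), 4.19 ± 2.66 (CD) and 0.904 ± 0.372 (VC). The VC libraries of both graft types overlapped for Pbr015751.1, whereas for Pbr012737.1 they did not. Whether these genes lie next to each other in the genome, and whether reads of genes of the same length were shared, was not tested.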
